A study of Mus musculus with 2 samples.

Results

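Alpha and beta tubulin form the dimer from which microtubules are built, and mammals encode each subunit in several genes with nearly the same protein sequence. The genes differ most in the acidic tail at the end of the protein, where motor proteins and modifying enzymes bind, and in the cells that use them. In the embryonic neural tube, dividing progenitors need tubulin for the spindle and the primary cilium, while newborn neurons need it for the axon. The family described here was chosen by gene name: the alpha genes Tuba1a, Tuba1b and Tuba1c, and the beta genes Tubb2a, Tubb2b, Tubb3, Tubb4a, Tubb4b, Tubb5 and Tubb6. All 10 were found in the gene tables, among 43346 annotated genes, and 17 of their transcripts were found in the transcript tables.

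The tissue was hindbrain of B6NCrl mouse embryos, males and females mixed, at 10.5 days of development. There was 1 group of 2 biological replicates and no treatment, mutant or second tissue: replicate 1 pooled 69 embryos and replicate 2 pooled 51. Libraries were prepared with 10 ng of total RNA above 200 nucleotides in length, and synthetic spike-in RNAs were included. Both pools carry the same donor ID in the labels, so the spread between them describes these pools only. With 1 library on each side, no test between the pools was possible and no p-value is given.

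Annotated genes received 38170078 counts in replicate 1 and 36382223 in replicate 2, and 1 count in Tubb3 was worth 0.0209 and 0.0233 TPM. TPM is abundance corrected for transcript length and scaled to the same total in each library. Of 8 hindbrain markers, 7 were detected, meaning that they reached 1 TPM in each library, against 2 of 5 forebrain markers, and the summed TPM was 225 and 175 for the hindbrain list and 23.4 and 19.9 for the forebrain list. The defining hindbrain gene below that level was Egr2, at 0.45 TPM in replicate 1 and at 1.72 TPM in replicate 2. The spike-in share of TPM was 13.0% in replicate 1, against 7.82% in replicate 2.

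In the mm10 assembly the closest paralogs are neighbours. Tuba1b (98931425 to 98934565, minus strand), Tuba1a (98949837 to 98953703, minus strand) and Tuba1c (99029891 to 99038110, plus strand) lie together on chromosome 15. Tubb2a (34074274 to 34078007) and Tubb2b (34126748 to 34130466) lie side by side on the minus strand of chromosome 13. Tubb3 is on chromosome 8 (123411424 to 123422015, plus strand) and Tubb4b on chromosome 2 (25222160 to 25224702, minus strand). Tubb5 (35833921 to 35838306) and Tubb4a (57080066 to 57087782) are on the minus strand of chromosome 17, far apart.

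How alike the genes are decides how well their reads can be told apart, so the coding ends of 6 beta genes, which encode the variable tail, are shown first. Each line gives the last 60 coding bases, stop codon included, of the main transcript, read from GENCODE M21 transcripts on GRCm38; each stretch lies in a single exon. Capitals mark bases that differ from a partner, or have no counterpart in it, in a gapped alignment of the whole coding sequences. The partner is Tubb2a for Tubb2b and Tubb5 for the others; Tubb5 itself is all in lower case.
Tubb5, chr17:35834982-35835041, minus strand: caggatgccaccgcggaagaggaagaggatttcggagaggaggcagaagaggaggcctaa
Tubb2a, chr13:34074468-34074527, minus strand: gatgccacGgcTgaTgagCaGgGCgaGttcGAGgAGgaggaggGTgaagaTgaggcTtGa
Tubb2b, chr13:34127471-34127530, minus strand: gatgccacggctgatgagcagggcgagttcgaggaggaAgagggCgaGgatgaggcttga
Tubb4a, chr17:57080690-57080749, minus strand: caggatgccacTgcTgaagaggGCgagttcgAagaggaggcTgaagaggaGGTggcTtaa
Tubb4b, chr2:25222308-25222367, minus strand: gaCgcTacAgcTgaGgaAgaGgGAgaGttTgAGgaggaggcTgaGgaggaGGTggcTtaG
Tubb3, chr8:123421623-123421682, plus strand: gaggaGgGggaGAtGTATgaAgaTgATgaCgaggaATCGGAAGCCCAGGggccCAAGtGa
Tubb2b differed from Tubb2a at 3 bases of this stretch. Tubb3, the neuronal beta tubulin, had 32 bases marked against Tubb5, more than Tubb4a (10), Tubb2a (18) or Tubb4b (20). These counts take in any bases without a counterpart in Tubb5: of the 1353 coding bases of Tubb3, 1335 were aligned to it.

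The other end of the coding sequence holds the signal by which cells are known to adjust tubulin mRNA to the amount of free tubulin. The factor TTC5 binds the first residues of new tubulin as they leave the ribosome and brings about decay of the mRNA. The 12 bases that open the coding sequence are given with the start codon in lower case and the next codons in capitals.
Tuba1a, Tuba1b and Tuba1c: atgCGTGAGTGC
Tubb3 and Tubb4b: atgAGGGAGATC
Tubb5: atgAGGGAAATC
Tubb4a: atgCGGGAAATC
Tubb2a: atgCGCGAGATC
Tubb2b: atgCGAGAGATC
The 3 alpha genes shared 1 sequence of bases here, and the 6 beta genes shown had 5. Those 5 differ only in synonymous codons, so the 6 beta genes encode the same residues in this stretch. In the alpha genes this stretch is interrupted by an intron, and in the beta genes shown it lies in a single exon. Ttc5 itself was at 89.9 TPM in replicate 1 and at 81.3 TPM in replicate 2.

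Over the whole coding sequence, the alpha genes were 97.6% to 98.4% identical to each other at the base level. The 7 beta genes ranged from 80.7% (Tubb5 with Tubb6) to 96.5% (Tubb2a with Tubb2b), with a median of 83.6% over 21 pairs. An alpha and a beta gene shared 55.2% to 57.9% of aligned bases. Each main transcript was also broken into all overlapping windows of 100 bases, and each window was sought on both strands in every transcript of the deposited tables that the reference holds. For Tubb3, Tubb4a, Tubb5 and Tubb6, 100% of windows occurred in no other gene. For Tuba1a this was 34.2%, for Tuba1b 30.5% and for Tuba1c 46.6%, and within the coding part only 18.5%, 9.07% and 19.6%. Tubb2a and Tubb2b had 64.1% and 73.9% of windows to themselves, and 543 windows of each matched the other. Tubb4b had 69.4% and shared windows with 4 genes, most with the processed pseudogene Tubb4b-ps1, which matched 411 of 1499.

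**Figure D1:**
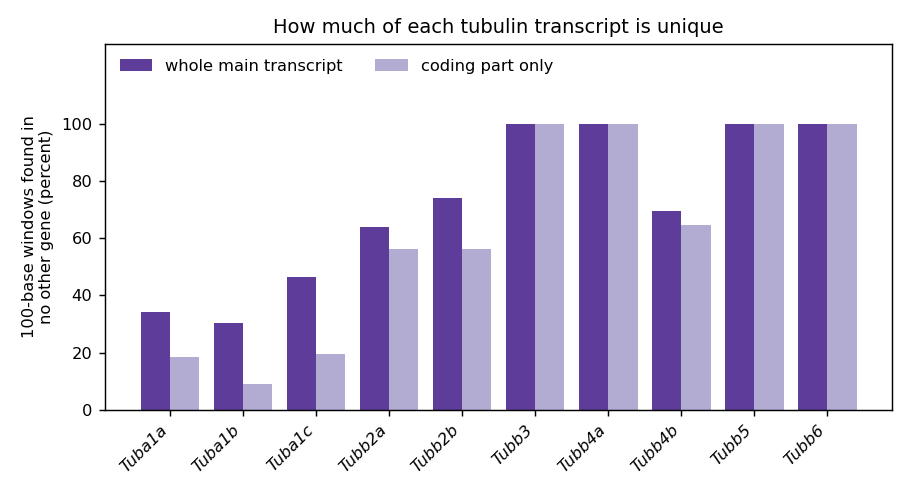
Percent of 100-base windows of each gene's main transcript that occur in no other gene of the tables, for the whole transcript (dark bars) and its coding part (light bars). Tubb3, Tubb4a, Tubb5 and Tubb6 are at 100%, and the alpha genes lie between 30.5% and 46.6% for the whole transcript.

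The deposited tables hold a second measure of the split of shared reads, which set apart the same genes but did not order the alpha genes alike. The posterior SD of the count, a measure of how freely reads could be reassigned between genes, was 0 in both libraries for Tubb3, Tubb4a, Tubb5 and Tubb6. For Tuba1a it was 155 of 324097 counts in replicate 1 and 143 of 170268 in replicate 2. It was largest relative to the count for Tuba1c, at 1.73% and 1.59%, although Tuba1c had the largest share of unique windows among the alpha genes. The pseudogenes Tubb4b-ps1 (15.5 and 16.8 counts) and Tubb4b-ps2 (12.1 and 6.82 counts) took few reads beside the 21136 and 21205 counts of Tubb4b. The predicted gene Gm20388, whose annotated span covers Tubb3 on the same strand, had 256 and 330 counts. Levels of the alpha genes and of Tubb2a and Tubb2b therefore carry the uncertainty of that split, and those of Tubb3, Tubb4a, Tubb5 and Tubb6 do not. Tubb4b carries a little of it, with a posterior SD of 3.26 counts in replicate 1 and 3.56 in replicate 2.

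All 10 genes were detected, and together they made up 1.51% of the TPM of annotated genes in replicate 1 and 1.04% in replicate 2. Tuba1a, the alpha tubulin most used in young neurons, had 7781 TPM in replicate 1 and 4558 TPM in replicate 2 (6169 ± 2279 TPM; here and below mean ± SD, n = 2). Among 21461 nuclear protein-coding genes it ranked first in replicate 1 and 6th in replicate 2. Tuba1b, the alpha tubulin of most dividing cells, followed at 1753 TPM in replicate 1 and at 2031 TPM in replicate 2 (1892 ± 196 TPM). The third alpha gene, Tuba1c, was far lower, at 82.7 TPM in replicate 1 and at 105 TPM in replicate 2 (93.8 ± 15.7 TPM). In both libraries the alpha order was the same, Tuba1a above Tuba1b above Tuba1c, with no overlap.

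Among the beta genes the broadly used Tubb5 led, at 1323 TPM in replicate 1 and at 1353 TPM in replicate 2 (1338 ± 21.8 TPM). In TPM it was the member that varied least between the pools, with a coefficient of variation of 1.63%. When the pools were scaled by the spike-ins it was not, as given below. Tubb3, the marker tubulin of neurons, had 727 TPM in replicate 1 and 473 TPM in replicate 2 (599.8 ± 180 TPM). Tubb4b, a broadly used isotype that also enters cilia, had 524 TPM in replicate 1 and 585 TPM in replicate 2 (554 ± 43.4 TPM). The ranges of Tubb3 and Tubb4b overlapped: Tubb3 was the higher in replicate 1 and Tubb4b in replicate 2.

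The near-identical Tubb2b and Tubb2a, both rich in developing neurons, stood next. Tubb2b had 343 TPM in replicate 1 and 184 TPM in replicate 2 (263 ± 113 TPM). Tubb2a had 340 TPM in replicate 1 and 167 TPM in replicate 2 (254 ± 122 TPM). Their ranges overlapped, and the TPM of Tubb2b was 1.01 times that of Tubb2a in replicate 1 and 1.10 times in replicate 2.

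The 3 lowest genes were close together. Tubb4a, known from neurons and myelinating glia of the later brain, had 133 TPM in replicate 1 and 56.4 TPM in replicate 2 (94.8 ± 54.3 TPM, a coefficient of variation of 57.3%). Tubb6, a minor isotype of many tissues whose gene lies on chromosome 18 (67390717 to 67402749, plus strand), had 86.4 TPM in replicate 1 and 96.1 TPM in replicate 2 (91.2 ± 6.92 TPM). Tubb4a was the highest of the trio in replicate 1 and the lowest in replicate 2, so that the means of Tubb4a, Tuba1c and Tubb6 do not set an order. Of the 9 neighbouring pairs in the order of means, 5 had separate ranges and 4 overlapped. Those that overlapped were Tubb3 with Tubb4b, Tubb2b with Tubb2a, Tubb4a with Tuba1c, and Tuba1c with Tubb6.

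**Figure D2:**
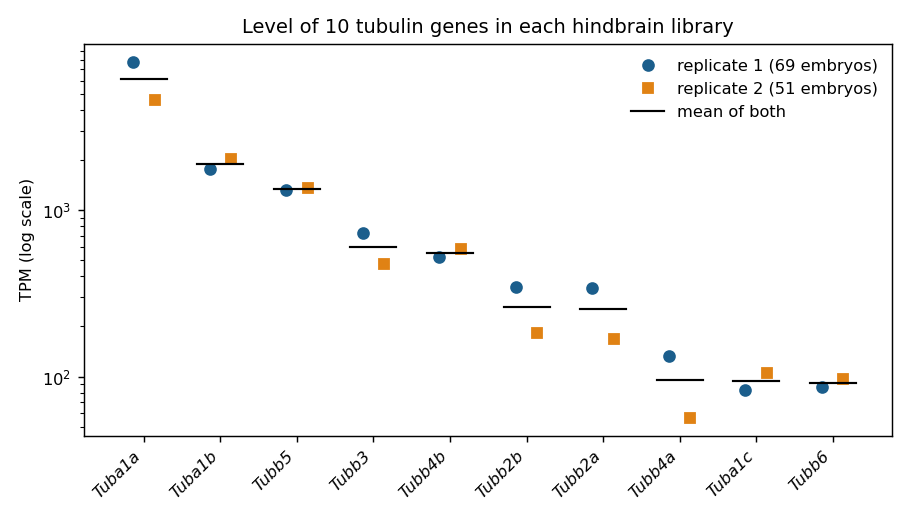
TPM (log axis) of the 10 tubulin genes in replicate 1 (circles) and replicate 2 (squares), with the mean of both as a bar, ordered by mean. Tuba1a is at 7781 and 4558 TPM, and Tubb4a, Tuba1c and Tubb6 share the low end, between 56.4 and 133 TPM.

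Nearly all of each gene's abundance came from 1 transcript. For 6 genes the tables list a single transcript. The other 4 (Tuba1a, Tuba1b, Tubb4b and Tubb5) have 11 transcripts between them, and the main one held at least 98.4% of the gene's TPM in each library. No minor transcript reached 5% of its gene. The largest minor share was that of a retained-intron transcript of Tuba1b, at 1.05% in replicate 1 and 0.577% in replicate 2. The 3 minor transcripts of Tubb5 were each at 0.755% or less in replicate 1 and 0.682% or less in replicate 2.

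Alpha tubulin mRNA outweighed beta tubulin mRNA among these genes. The 3 alpha genes summed to 9617 TPM in replicate 1 and 6694 TPM in replicate 2, and the 7 beta genes to 3476 and 2914 TPM. The alpha to beta ratio was 2.77 in replicate 1 and 2.30 in replicate 2 (2.53 ± 0.332). Tuba1a made up 80.9% and 68.1% of the alpha sum. Within the beta sum, Tubb5 took 38.1% in replicate 1 and 46.4% in replicate 2, Tubb3 20.9% and 16.2%, and Tubb4b 15.1% and 20.1%. The neurons' share of tissue and the tubulin mRNA per neuron cannot be told apart in bulk RNA: fewer cells of a type and less RNA per cell give the same value.

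By their known use, 5 of the genes are tied mainly to neurons (Tuba1a, Tubb2a, Tubb2b, Tubb3 and Tubb4a) and 5 are used widely (Tuba1b, Tuba1c, Tubb4b, Tubb5 and Tubb6). The neuronal genes summed to 9324 TPM in replicate 1 and 5438 TPM in replicate 2, and the general genes to 3769 and 4171 TPM. Neuronal genes thus made up 71.2% of tubulin TPM in replicate 1 and 56.6% in replicate 2, and in both libraries their sum was above that of the general genes. Within the neuronal set the alpha to beta ratio was 5.04 in replicate 1 and 5.18 in replicate 2. Within the general set it was 0.950 in replicate 1 and 1.05 in replicate 2. Both ratios moved less between the pools than the ratio over all 10 genes.

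**Figure D3:**
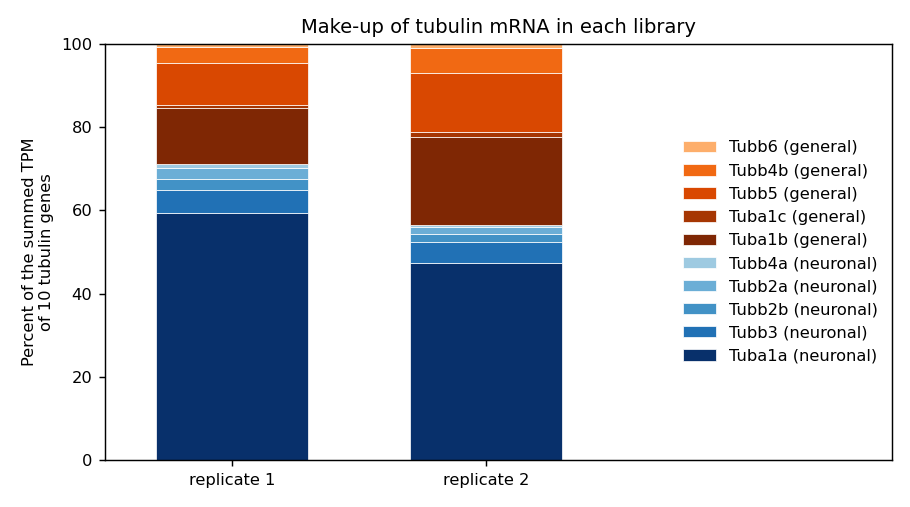
Share of each gene in the summed TPM of the 10 tubulin genes, in percent, for replicate 1 and replicate 2; blue shades are the neuronal genes and brown to orange shades the general ones. The neuronal genes hold 71.2% in replicate 1 and 56.6% in replicate 2, and Tuba1a alone holds 59.4% and 47.4%.

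The pools were then compared gene by gene, as the log2 ratio of replicate 1 over replicate 2 after TMM scaling, which sets the typical gene to a ratio near 1. The 5 neuronal genes all had the higher value in replicate 1 (median log2 ratio 0.97). The 5 general genes lay between -0.28 (Tuba1c) and 0.03 (Tubb5), with a median of -0.10. The median was -0.02 over the 10262 nuclear protein-coding genes whose TPM averaged 5 or more. Of all 10 tubulin genes 6 were higher in replicate 1, against 46.8% of those genes. Scaling by the spike-ins shifted the median of those genes by -0.80. On that scale 4 of 10 tubulin genes were higher in replicate 1, where 3.76% of all genes were, and Tubb3 changed side, to -0.12.

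Tubb4a had the largest ratio, with 7667 counts in replicate 1 and 2911 in replicate 2. Its log2 ratio was 1.30 (1.24 to 1.37; here and below the 95% Wilson interval, which covers counting error only), or 2.47-fold. Tubb2a had 13656 counts in replicate 1 and 6013 in replicate 2, a log2 ratio of 1.09 (1.05 to 1.13), or 2.13-fold. These were the 2 members past 2-fold, where 2.34% of all genes compared reached that fold in favour of replicate 1 and 0.487% in favour of replicate 2. Under spike-in scaling neither passed (0.50 for Tubb4a and 0.29 for Tubb2a), and the sole member past 2-fold was Tuba1c, at -1.08; on that scale 0.312% of all genes reached 2-fold in favour of replicate 1 and 25% in favour of replicate 2. Tubb2b stood just under that limit at 0.97 (0.93 to 1.00), with 16889 counts in replicate 1 and 8111 in replicate 2.

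Tuba1a followed at 0.84 (0.83 to 0.85), or 1.79-fold, with its 324097 counts in replicate 1 and 170268 in replicate 2. Tubb3 had 34756 counts in replicate 1 and 20267 in replicate 2, a log2 ratio of 0.69 (0.66 to 0.71), or 1.61-fold. At a limit of 1.5-fold all 5 neuronal genes and no general gene passed, where 6.26% of genes were that much higher in replicate 1 and 2.81% in replicate 2, or 9.06% in either direction. Both sets were chosen with earlier results of these data known, so this split is a description only. Under spike-in scaling the same limit was passed by no neuronal gene (-0.12 to 0.50) and by all 5 general genes, which were lower in replicate 1 (-0.78 to -1.08). On that scale 1.01% of genes passed it in favour of replicate 1 and 79.9% in favour of replicate 2. Of the genes compared, 1.23% had a ratio at least as high as Tubb4a, 3.41% as high as Tuba1a and 4.88% as high as Tubb3. Among the 3263 genes that averaged 50 TPM or more these shares were 0.306%, 1.41% and 2.18%. Every ratio between the pools rests on 1 library a side.

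Under TMM scaling no general gene reached 1.5-fold; under spike-in scaling their median was -0.90, beside -0.83 for all genes compared. Tubb5 had 90131 counts in replicate 1 and 82930 in replicate 2, a log2 ratio of 0.03 (0.01 to 0.04). As a ratio of TPM it was -0.03. Under spike-in scaling Tubb5 was at -0.78, and the member that differed least between the pools was Tuba1a, at 0.03. Tuba1b had 77311 counts in replicate 1 and 80592 in replicate 2, a log2 ratio of -0.15 (-0.17 to -0.14). Tubb4b was at -0.10 and Tubb6 at -0.09. Tuba1c had 4200 counts in replicate 1 and 4775 in replicate 2, the lowest ratio of the family at -0.28 (-0.34 to -0.22).

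**Figure D4:**
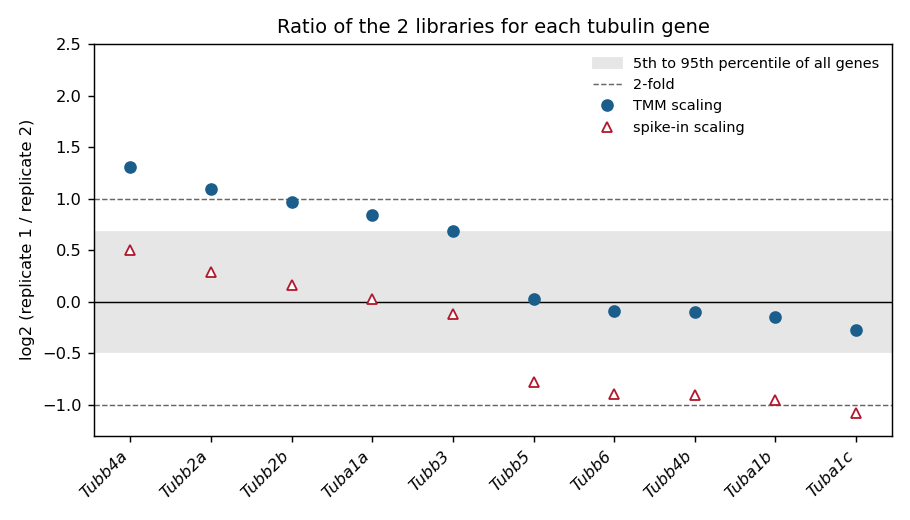
Log2 ratio of replicate 1 over replicate 2 for each tubulin gene, under TMM scaling (filled circles) and under spike-in scaling (open triangles). The grey band holds the 5th to 95th percentile of all genes compared under TMM scaling, and the dashed lines mark 2-fold. The band does not apply to the triangles: under spike-in scaling the median of all genes compared was -0.83. Under TMM scaling the 5 neuronal genes lie between 0.69 and 1.30, at or above the upper edge of the band at 0.68, and the general genes lie inside it.

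Ratios between genes within a library need no scaling between libraries. The TPM of Tuba1a was 4.44 times that of Tuba1b in replicate 1 and 2.24 times in replicate 2. That of Tubb3 was 0.550 times that of Tubb5 in replicate 1 and 0.349 times in replicate 2. Tubb4a and Tubb4b stood at a ratio of 0.254 in replicate 1 and 0.0964 in replicate 2. Ratios between general genes moved less: Tubb4b over Tubb5 was 0.396 in replicate 1 and 0.432 in replicate 2, and Tubb6 over Tubb5 0.0653 and 0.0710.

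Markers of neurons and of some other cells were set beside the tubulins, in lists chosen with earlier results of these data known. Under TMM scaling all 11 markers of postmitotic neurons, none of them a tubulin, had the higher value in replicate 1 (median log2 ratio 0.86). On that scale 5 of 11 passed 2-fold. Of all genes compared 46.8% were on that side and 2.34% passed 2-fold on it. Among these, the neuronal intermediate filament gene Ina had 197 TPM in replicate 1 and 63.0 TPM in replicate 2, and Dcx, which binds microtubules in migrating neurons, had 75.1 and 33.2 TPM. Their summed TPM was 1698 in replicate 1 and 1110 in replicate 2, and none was at 0. All 7 cell cycle genes were lower in replicate 1, with a median of -0.40 and summed TPM of 1353 and 1858. The 7 progenitor markers had a median of 0.15 and summed TPM of 2246 in replicate 1 and 1879 in replicate 2, with 5 of 7 higher in replicate 1. Under spike-in scaling the medians of the neuron, progenitor and cell cycle lists were 0.05, -0.66 and -1.21. On that scale 6 of 11 neuron markers were higher in replicate 1, where 3.76% of all genes compared were. The highest ratio among these markers was that of Ina, at 0.91, so that none passed 2-fold. Lists of other cells moved as well under TMM scaling. The 4 macrophage markers were all higher in replicate 1, with a median of 0.47 and summed TPM of 46.7 in replicate 1 and 32.0 in replicate 2. Of 4 surface ectoderm markers 3 were lower in replicate 1, with a median of -0.43 and summed TPM of 83.9 and 130.3, and Epcam was at -1.20. Among 6 mesenchyme markers (median 0.16, summed TPM of 624 and 534) the collagen gene Col1a1 was at 0.97. The medians were -0.18 for red blood cell, -0.10 for endothelial and 0.38 for platelet markers. Summed TPM in replicates 1 and 2 was 14404 and 16294 for the red blood cell list. It was 115.6 and 140.9 for the endothelial list and 65.5 and 49.9 for the platelet list. The part of cell mixture in the tubulin ratios was not tested.

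The genes nearest to Tubb3 in log2 TPM over both libraries were Fabp7 (685 and 437 TPM in replicates 1 and 2), Dynlt1b, Maged1, Atp5e and Igfbp2, at distances from 0.14 to 0.33. Fabp7 encodes a lipid-binding protein of neural progenitors and radial glia, and Dynlt1b a light chain of the motor dynein. Those nearest to Tubb5 were the ferritin gene Fth1 (1358 and 1306 TPM), the initiation factor gene Eif1, the dynein light chain gene Dynll1, the histone gene H3f3b and the ribosomal gene Rps14, at distances from 0.06 to 0.15. Likeness here rests on 2 libraries and means a like level in each.

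Tubulin subunits cannot fold alone: prefoldin hands them to the chaperonin CCT, and the tubulin cofactors then join alpha to beta. All 8 chaperonin genes were detected, from Cct3 (605 TPM in replicate 1 and 681 TPM in replicate 2) to Cct2 (187 and 240 TPM). Under TMM scaling all 8 were slightly lower in replicate 1, with a median log2 ratio of -0.20 and none past 2-fold. Of the 10262 genes compared, 5460 were on that side. The 6 prefoldin genes were led by Pfdn5 (293 and 279 TPM), with Pfdn4 the lowest (83.4 and 78.8 TPM), and had a median of 0.01. The 6 cofactor genes, from Tbcb (250.4 and 234 TPM) to Tbcc (40.6 and 29.8 TPM), had a median of 0.13. Under TMM scaling no folding gene passed 2-fold in either direction, where 2.83% of all genes did, and lists this short would hold few at that share. Under spike-in scaling Cct2 (-1.10), Cct6a (-1.17), Cct7 (-1.03) and Cct8 (-1.14) passed it. On that scale 25% of all genes passed it in favour of replicate 2.

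**Figure D5:**
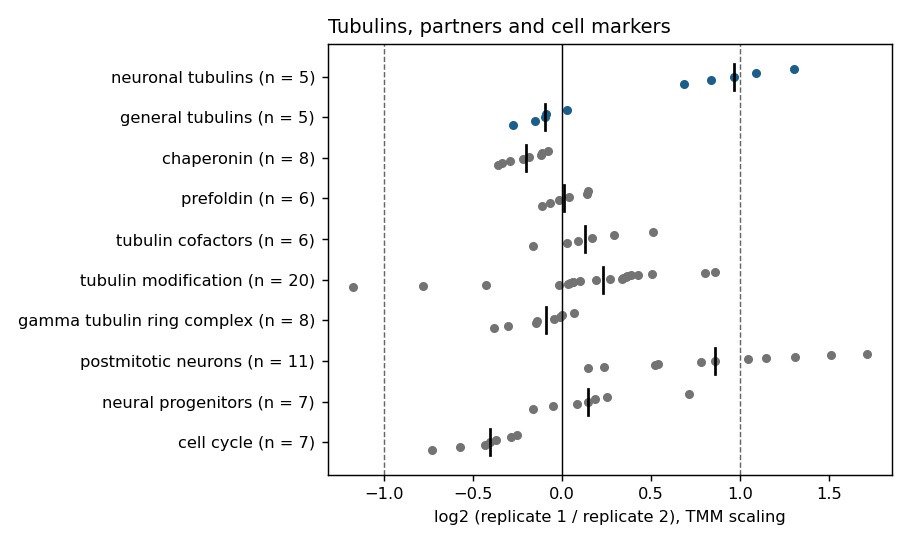
Log2 ratio of replicate 1 over replicate 2 (TMM scaling) for single genes of the tubulin sets (blue), of lists of tubulin partners and of cell markers (grey), with the median of each list as a bar and dashed lines at 2-fold. The neuronal tubulins have a median of 0.97 and the neuron markers of 0.86, while the chaperonin genes lie at -0.20 and the cell cycle genes at -0.40.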

How the data were processed

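Gene and transcript tables of 2 libraries were used. Per the file headers they hold expected counts, that is estimated counts in which shared reads are divided between genes, with posterior mean counts and SDs. Per the file headers they also hold TPM, posterior mean TPM and FPKM, and the transcript tables the percent of a gene in each isoform. The deposited notes name assembly mm10 and annotation M4; for the aligner, the counting program and the strand setting, no source used here gives a name. The deposited interval of TPM belongs to the posterior mean TPM: for Tuba1a in replicate 1 it runs from 7587 to 7644 around 7616, below the deposited TPM of 7781. Deposited values of other kinds, such as lengths, were used only to describe transcripts.

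Symbols came from GENCODE M21, joined on the gene ID after its version was removed (42462 of 43346 annotated genes). Library sizes were the rounded expected counts of annotated genes. Log2 ratios were computed with edgeR 4.0.16 (TMM, prior count 2); DESeq2 1.42.0 gave alternative size factors. Genes compared were protein-coding, nuclear and had a mean TPM of at least 5. The ratio was tested on simulated counts. Window matching and alignment used Python 3.11.15 and Biopython 1.88; M21 transcripts of Tuba1a, Tuba1c, Tubb2a, Tubb2b and Tubb6 differ in length from the deposited ones. The coding ends of the alpha genes are not reported here.

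Named were the 10 members and the 5 genes nearest to Tubb3 and to Tubb5. In each partner list the highest gene, the lowest one detected and any past 2-fold under TMM scaling were named. Genes past 2-fold under spike-in scaling were also named for the folding, modification and ring complex lists. Members, lists and the neuronal and general sets were chosen with earlier results of these data known.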

Additional observations from a re-analysis of the deposited data

How the results depend on the processing

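No paired analysis was possible because there was 1 group, so no replicate numbers are shared between groups. Leaving out replicate 1 or replicate 2 gave an alpha to beta ratio of 2.30 to 2.77 and a Tubb3 share of beta TPM of 16.2% to 20.9%. Counts without length correction gave an alpha to beta ratio of 1.96 instead of 2.53. Under spike-in scaling 1 tubulin gene (Tuba1c, lower in replicate 1) passed 2-fold instead of 2, and 2594 of all genes did instead of 290. At 1.5-fold the counts were 5 and 930, and at 1.5-fold with spike-in scaling, a pair of settings chosen after seeing the data, 5 and 8305; the 5 were the neuronal genes under TMM scaling and the general genes under spike-in scaling. A minimum mean TPM of 1 gave 669 genes past 2-fold, and no filter gave 1916. Total count scaling, DESeq2 size factors, a prior count of 0.5, posterior mean counts and the ratio of TPM left 2 tubulin genes past 2-fold; the first 4 also left 6 higher in replicate 1, and the ratio of TPM gave 5. The cause of these moves was not tested beyond the construction of each alternative. No tubulin gene past 2-fold changed direction under the alternatives run. Depth does not limit these levels: the lowest count of a member was 2911.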

Other observations

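The other alpha and beta tubulin genes were below the 10 described in both libraries. The alpha gene Tuba4a was at 8.6 TPM in replicate 1 and at 16.3 TPM in replicate 2, a log2 ratio of -0.64. Tuba3a and Tuba3b, alpha genes of the testis, had 0 counts in replicate 1 and 5 and 1 counts in replicate 2, and Tuba8 had 14 and 18 counts. Tubb1, the beta tubulin of platelets, was at 4.36 and 4.83 TPM. The platelet markers in the same libraries differed widely in level. Pf4 was at 56.4 and 42.4 TPM, Itga2b at 6.66 and 4.72 TPM, and Gp9 at 2.44 and 2.78 TPM. Gamma tubulin nucleates microtubules at the centrosome, and its main gene Tubg1 was at 113 and 115 TPM, against 3.86 and 2.40 TPM for Tubg2. The 8 genes of the gamma tubulin ring complex were all detected, from Mzt1 (a mean of 76.8 TPM) to Tubgcp6 (a mean of 18.7 TPM). Under TMM scaling their median log2 ratio was -0.09 and none passed 2-fold. Tubgcp4 (-1.19) and Nedd1 (-1.11) passed it under spike-in scaling, where 25% of all genes compared did so in favour of replicate 2.

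Genes of tubulin modification were mostly higher in replicate 1: 16 of 20 had a ratio above 1, with a median log2 ratio of 0.23, against 46.8% of all genes compared. That share covers genes that averaged 5 TPM or more, which Ttll11, Agbl1, Agbl2, Agbl3 and Agbl4 did not. Of these, all but Agbl1 were on the side of replicate 1. The highest was Atat1, which acetylates alpha tubulin inside the microtubule, at 181 TPM in replicate 1 and at 114 TPM in replicate 2 (log2 ratio 0.86). Detection held for 16 of the 20, the lowest being Agbl3, a deglutamylase gene, at 4.73 and 3.34 TPM. Under TMM scaling the sole gene past 2-fold was Agbl1, where 2.83% of all genes compared passed it in either direction. Agbl1 had 5 counts in replicate 1 and 13 in replicate 2, which are too few to set a direction. Ttll4 (-1.23) and Ttll7 (-1.58) also passed 2-fold under spike-in scaling, where 25% of all genes compared did so in favour of replicate 2. Under spike-in scaling 2 of the 20 genes on this list had a ratio above 1, against 3.76% of all genes compared. They were Atat1 (log2 ratio 0.05) and the low Ttll11 (0.03, with 76 and 40 counts).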
